A study of Mus musculus with 15 samples.

Results

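The collagen genes are the protein-coding genes whose mouse symbol is Col, a type number, the letter a and a chain number, and 44 of the 46679 genes in the deposited tables met this rule. By the structure of the protein they fall into 11 fibrillar chains, 8 chains of basement membranes and 25 others, the last made up of 6 chains of beaded filaments, 9 fibril-associated chains, 4 transmembrane chains, 3 short chains and 3 remaining chains. A collagen is built from chains that wind into a triple helix, and the chains of a trimer may come from a single gene or from different genes. Fibrillar collagens form the fibers of skin, bone and cartilage, fibril-associated collagens coat those fibers, and basement membrane collagens form the sheets under endothelium and around vessels. In healthy brain, collagen lies mostly in the meninges, the choroid plexus and the vascular basement membrane, and the tissue between neurons holds little of it.

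RNA was sequenced from naïve brain of C57BL/6 mice and from intracranial tumors of the syngeneic lines CT2A, GL261, 005 and Mut3, each group holding 3 of the 15 mice. Mice were 6 to 8 weeks old when 100000 cells (CT2A, GL261, 005) or 500000 cells (Mut3) were placed in the right hemisphere, and tumors were taken at the end stage after perfusion. CT2A and GL261 arose under methylcholanthrene and were grown in medium with fetal calf serum. CT2A has wild-type p53, and GL261 carries mutant K-ras and p53. The 005 line comes from a tumor driven by H-ras and AKT in a p53+/− mouse, and Mut3 from a mouse tumor with losses that include NF1 and p53, and both were grown without serum with EGF and FGF-2. All 4 lines carried GFP and firefly luciferase. Each tumor type is a single line, so its 3 mice show the spread between grafts of that line and not between tumors of its kind. The tissue is a mixture of grafted and host cells, and in such bulk RNA more cells that make a collagen cannot be told apart from more of its RNA per cell.

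Total counts ran from 3105119 to 13130158 per sample and were lowest in naïve brain, where 3 counts correspond to between 0.581 and 0.966 CPM, a gene's count scaled to the size of its library. Such floors cover counting error only. The neuron markers summed to between 1435 and 1569 TPM, the length-scaled level, in naïve brain and to at most 317 TPM in the tumors other than 005 replicate 3, which had 1002 TPM. That replicate also had 17.8% of its counts from the mitochondrial genome, against 4.60% and 6.42% in the other 005 tumors. Many results for 005 that it moved are given with and without it, but not all of them.

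A feature that many collagen messages share is a site for the microRNA family miR-29, which is known to repress extracellular matrix genes. The mature sequences below are from RefSeq, and the capitals mark the seed, bases 2 to 8, which is the same in all 3 members.
mmu-miR-29a-3p: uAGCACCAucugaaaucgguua
mmu-miR-29b-3p: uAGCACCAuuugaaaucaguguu
mmu-miR-29c-3p: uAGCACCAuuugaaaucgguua
The site that pairs with this seed, TGGTGCT on the strand of the transcript, was found in the 3′ UTR of 24 of the 43 collagen genes with a 3′ UTR in a principal transcript of GENCODE M21 (55.8%). Among all 20827 protein-coding genes the share was 12.3%, with a median UTR length of 849 bases against 971 bases in the collagens. By class, 9 of 10 fibrillar chains and 7 of 8 basement membrane chains held a site, against 8 of 25 others. For 6 genes on which the results turn, 1 site each is printed with its surroundings, from GRCm38, with the site in capitals, and Col4a2, Col9a1 and Col11a1 each hold a further site that is not shown.
Col2a1, chr15:97975682-97975688, minus strand: gtcctacacaaTGGTGCTattctgtgtca
Col3a1, chr1:45348982-45348988, plus strand: aaatgtctcaaTGGTGCTataataaataa
Col4a1, chr8:11199762-11199768, minus strand: ccgtcacaacaTGGTGCTactcccccccc
Col4a2, chr8:11448359-11448365, plus strand: gaaggccacgtTGGTGCTtatccttctgt
Col9a1, chr1:24252011-24252017, plus strand: tttagagcaacTGGTGCTattcagtaagt
Col11a1, chr3:114219083-114219089, plus strand: ttggatttcgtTGGTGCTgtagaaaacaa
These matches are letters in a sequence and not measured binding, and the level of the microRNAs was not analysed here. Col9a2, Col9a3 and Col18a1 have no site in the transcript searched. The part of miR-29 in the collagen levels that follow was not tested.

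The summed TPM of the 44 collagen genes rose above that of naïve brain in every CT2A, GL261 and Mut3 tumor. It was 15.4, 26.1 and 14.3 TPM in the naïve brains, 54.9, 68.3 and 59.4 TPM in CT2A, 57.5, 71.5 and 118 TPM in GL261, 25.8, 32.0 and 22.3 TPM in 005 and 90.5, 82.7 and 94.1 TPM in Mut3. CT2A, GL261 and Mut3 did not overlap naïve brain, whereas 005 did. Relative to the mean of naïve brain, the mean of Mut3 was 4.79-fold, that of GL261 4.43-fold, that of CT2A 3.27-fold and that of 005 1.435-fold. These sums are a description and were not tested.

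**Figure D1:**
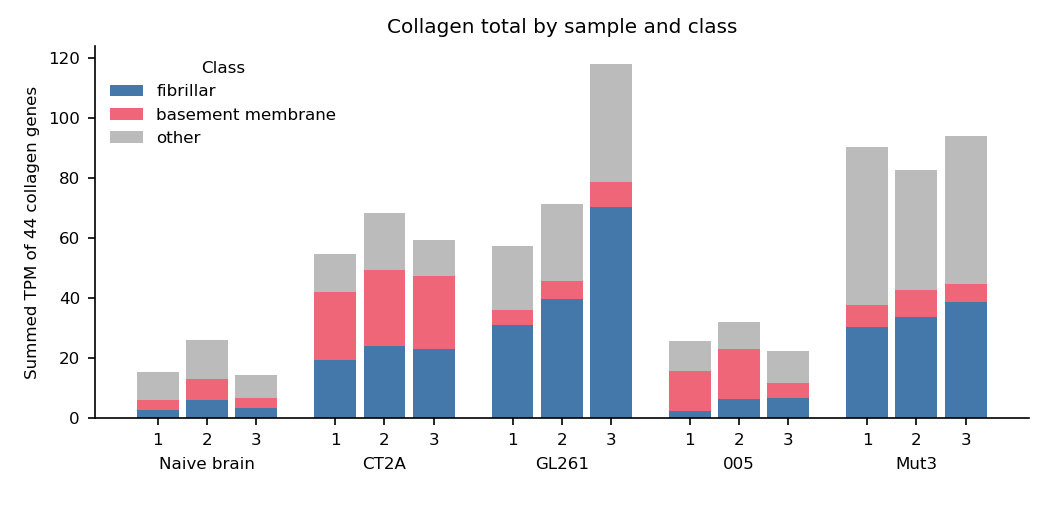
Stacked bars give the summed TPM of the 44 collagen genes in each of the 15 samples, split into fibrillar, basement membrane and other chains, with the replicate number and group under each bar. The tallest bar, GL261 replicate 3, reaches 118 TPM, the naïve brains lie between 14.3 and 26.1 TPM, and the basement membrane part is largest in CT2A.

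The tumors differed in which chains made up the sum. In CT2A, 36.6% ± 1.92 of the sum was fibrillar and 39.8% ± 2.61 basement membrane chains (SD, n = 3). In GL261 the fibrillar share was 56.3% ± 2.96 and the basement membrane share 8.16% ± 0.98. In Mut3 these shares were 38.5% ± 4.28 and 8.61% ± 2.36, and the other chains held 52.9% ± 5.03. In 005 the basement membrane share was 42.3% ± 16.9, with 22.7% in replicate 3 and 51.8% and 52.3% in the others. Naïve brain had 21.8% ± 3.89 fibrillar, 24.3% ± 2.54 basement membrane and 53.9% ± 5.56 other chains.

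A few chains led each tumor. Col3a1 (28.8% ± 2.15 of the collagen TPM), Col4a1 (25.6% ± 1.17) and Col18a1 (9.64% ± 1.40) led in CT2A. Col2a1 (34.3% ± 5.64), Col9a2 (10.2% ± 1.74) and Col11a1 (9.41% ± 2.08) led in GL261, and Col9a1 (30.2% ± 5.41), Col2a1 (15.2% ± 6.62) and Col11a1 (15.1% ± 11.2) in Mut3. In 005 Col4a1 (14.8% ± 6.52) and Col18a1 (14.1% ± 10.2) came first. In naïve brain Col4a3 (10.7% ± 3.56), Col16a1 (8.4% ± 2.25) and Col1a2 (7.27% ± 1.54) led, and no chain stood far above the rest. These orders depend on the length behind TPM. The ratio of counts to TPM corresponds to a length for Col16a1 and Col4a3 of only 0.113 and 0.114 of their longest transcript, relative to the median tested coding gene, and both lie in the lowest 2% of such genes (percentiles 1.22 and 1.24). When CPM was divided by the length of the longest transcript instead, Col1a2 led in naïve brain with 11.5%, Col3a1 took 44% in CT2A and came after Col2a1 in GL261 with 18% (8.98% in TPM), where Col9a2 took 7.95% and ranked below Col11a1 and Col9a1, and the fibrillar share of CT2A was 52.2% and that of its other chains 15.2%, against 23.6% in TPM.

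Differences of single genes were tested with edgeR's quasi-likelihood test on the counts, fitted to all samples, and a gene was called where the p adjusted by Benjamini and Hochberg lay under 0.05 and the log2 fold change reached 1 in either direction. Of the 44 collagen genes, 34 passed the filter on low counts, 25 of which (73.5%) differed among the 5 groups at an adjusted p under 0.05, as did 52.1% of all 17481 tested genes. In CT2A, 15 collagen genes were called higher than naïve brain and 5 lower, which is 44.1% and 14.7% of the 34, where 19.0% and 20.2% of all tested genes were called. The calls below naïve brain were the less stable ones, with 0 lower and 14 higher without CT2A replicate 2, 1 and 14 without CT2A replicate 3, and 10 and 11 with limma on log2(TPM + 0.1). In GL261, 11 were higher and 2 lower (32.4% and 5.88%), against 14.6% and 7.77% of all genes, and limma on log2(TPM + 0.1) gave 10 and 5. In Mut3, 15 were higher and 3 lower (44.1% and 8.82%), against 17.9% and 19.8%. In 005, 8 were higher and 0 lower (23.5% and 0%), against 11.6% and 1.05%, and limma on log2(TPM + 0.1) gave 7 and 3. The median log2 fold change of the 34 genes was 1.76 in Mut3, 1.47 in GL261, 0.75 in CT2A and 0.72 in 005, and that of all tested genes was 0.11, -0.08, -0.04 and 0.01. The 34 passed the filter in part because they were high in some group, so these counts describe the genes that were measurable. The count in 005 moved with single libraries, to 4 without naïve replicate 1, 5 without naïve replicate 3, 4 without 005 replicate 2 and 15 (11 higher, 4 lower) without 005 replicate 3, where 17.6% and 18.1% of all genes were called higher and lower. Fitted with no group but 005 and naïve brain, edgeR tested 25 of them and called 0, where 9 were higher and 1 lower at an unadjusted p under 0.05, and DESeq2 on all samples called 10 higher and 1 lower.

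**Figure D2:**
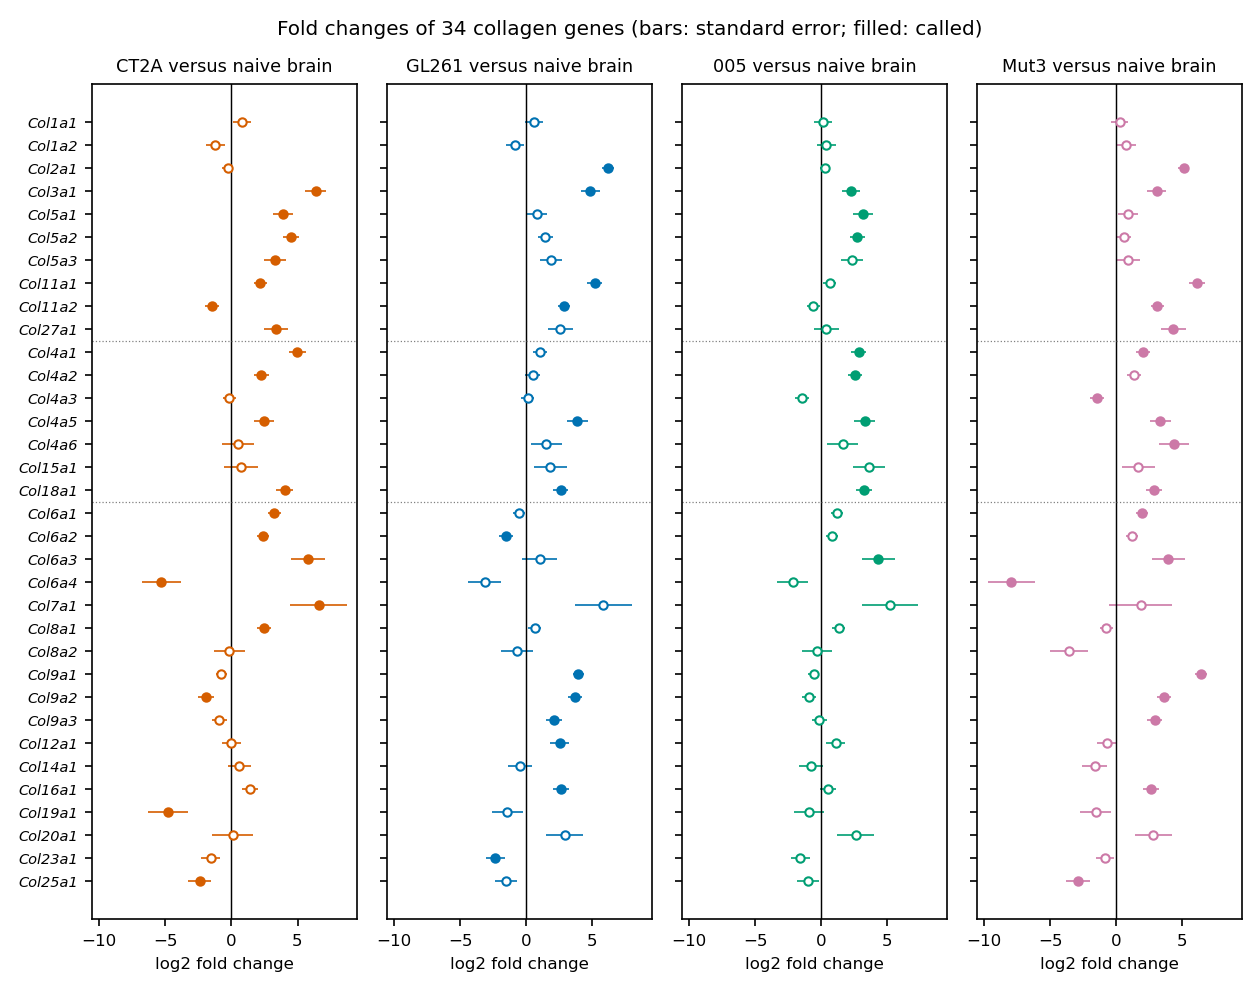
Each panel gives the log2 fold change of the 34 tested collagen genes in 1 tumor line against naïve brain, with bars for the standard error and filled points for called genes, and dotted lines part fibrillar, basement membrane and other chains. Filled points for Col2a1, Col9a1 to Col9a3 and Col11a2 lie right of 0 in GL261 and Mut3, those for Col5a1 and Col5a2 in CT2A and 005, and Col3a1, Col4a5 and Col18a1 are filled in all 4 panels.

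The clearest contrast between the tumors lay in the chains of types II, IX and XI, which together form the fibrils of hyaline cartilage. This grouping of 6 chains was made after their values were seen. All 6 were called higher than naïve brain in GL261 and in Mut3, and 0 were in 005. Of all tested genes, 14.6%, 17.9% and 11.6% were called higher in GL261, Mut3 and 005, so that 0 of 6 in 005 lies near the share of all genes. Without 005 replicate 3, Col9a1 and Col9a2 were called lower in 005 than in naïve brain. Their log2 fold changes were then -1.30 ± 0.38 and -1.68 ± 0.56 (adjusted p = 0.0156 and 0.0277). In CT2A, Col11a1 was higher and Col9a2 and Col11a2 lower (16.7% and 33.3% of the 6), where 19.0% and 20.2% of all tested genes were called. Together they held 64.3% ± 3.41 of the collagen TPM in GL261 and 74.4% ± 5.20 in Mut3, against 2.89% ± 0.82 in CT2A, 9.73% ± 8.37 in 005 and 21.2% ± 1.64 in naïve brain (SD, n = 3). The 005 tumors had 4.85% and 4.94%, apart from replicate 3 with 19.4%.

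Col2a1 (ENSMUSG00000022483), the single chain of the type II homotrimer, had 3.06, 3.74 and 3.79 CPM in naïve brain, 200, 189 and 377 CPM in GL261 and 141, 153 and 68.3 CPM in Mut3. It stayed between 2.33 and 5.48 CPM in every CT2A and 005 tumor, so that the GL261 and Mut3 samples lay apart from all others. Its log2 fold change from naïve brain was 6.18 ± 0.45 (SE) in GL261 (adjusted p = 6.95e-06) and 5.09 ± 0.43 in Mut3 (adjusted p = 1.39e-05), and both calls held with any replicate left out. Between GL261 and Mut3 it differed by 1.08 ± 0.35 (adjusted p = 0.0457). That call was lost in 10 of 15 fits, namely without naïve replicate 1 or 3, CT2A replicate 1 or 3, GL261 replicate 2 or 3, 005 replicate 1 or any Mut3 replicate, with an adjusted p of up to 0.259 (without GL261 replicate 3).

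Col9a1, Col9a2 and Col9a3 encode the 3 chains of type IX collagen, which sits on the surface of type II fibrils. Col9a1 had 384, 238 and 349 CPM in Mut3, 54.5, 60.3 and 61.4 CPM in GL261 and between 1.13 and 4.98 CPM in the other samples. Mut3 exceeded each of the other groups without overlap, and Col9a1 was the only tested collagen gene that was called higher in Mut3 than in naïve brain and in all 3 other tumors. Its log2 fold change was 6.38 ± 0.47 in Mut3 (adjusted p = 7.06e-06) and 3.92 ± 0.42 in GL261 (adjusted p = 8.26e-05), and the difference of GL261 from Mut3 was -2.46 ± 0.38 (adjusted p = 0.0012). Col9a2 did not show that difference. It had 40.2, 28.6 and 49.3 CPM in GL261 and 38.7, 32.3 and 37.7 CPM in Mut3 (difference 0.12 ± 0.47, adjusted p = 0.89), against 4.08, 3.24 and 1.62 CPM in naïve brain and 0.855, 0.466 and 1.03 CPM in CT2A. The difference of CT2A from naïve brain was -1.90 ± 0.58 (adjusted p = 0.0186), a call lost without naïve replicate 1 or 2 or CT2A replicate 2 (adjusted p up to 0.0864). Col9a3 had 11.6, 12.8 and 21.6 CPM in GL261 and 35.6, 19.1 and 26.0 CPM in Mut3, against 2.86 to 4.06 CPM in naïve brain. Its exons overlap those of Tcfl5 on the other strand, and whether the counting used strand is not given in the sources used here. The call of Col9a3 in GL261 was lost without naïve replicate 1 or GL261 replicate 3 (adjusted p up to 0.0919).

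Col11a1 and Col11a2 encode chains of type XI collagen, the minor fibrillar collagen inside type II fibrils. Col11a1 had 2.24, 5.98 and 7.03 CPM in naïve brain, 148, 200 and 195 CPM in GL261 and 146, 223 and 654 CPM in Mut3. Unlike the other chains of this group it was also higher in CT2A, with 21.5, 23.4 and 24.4 CPM (log2 fold change 2.20 ± 0.52, adjusted p = 0.00546), between naïve brain and the GL261 and Mut3 tumors and without overlap with either. The 654 CPM of Col11a1 in Mut3 replicate 3 were the highest value of any collagen gene in any sample, while Col2a1 was lowest of its group in that replicate. Col11a2 had 10.6, 10.3 and 19.9 CPM in GL261 and 13.1, 14.8 and 20.7 CPM in Mut3, against 0.816, 3.24 and 1.62 CPM in naïve brain and 0.611, 0.776 and 0.646 CPM in CT2A. Its lower level in CT2A (-1.45 ± 0.52, adjusted p = 0.0374) rested on few counts and was called in only 7 of 15 fits. It was lost without naïve replicate 2 or 3, any CT2A replicate, GL261 replicate 1 or Mut3 replicate 1 or 3, with an adjusted p of up to 0.448.

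**Figure D3:**
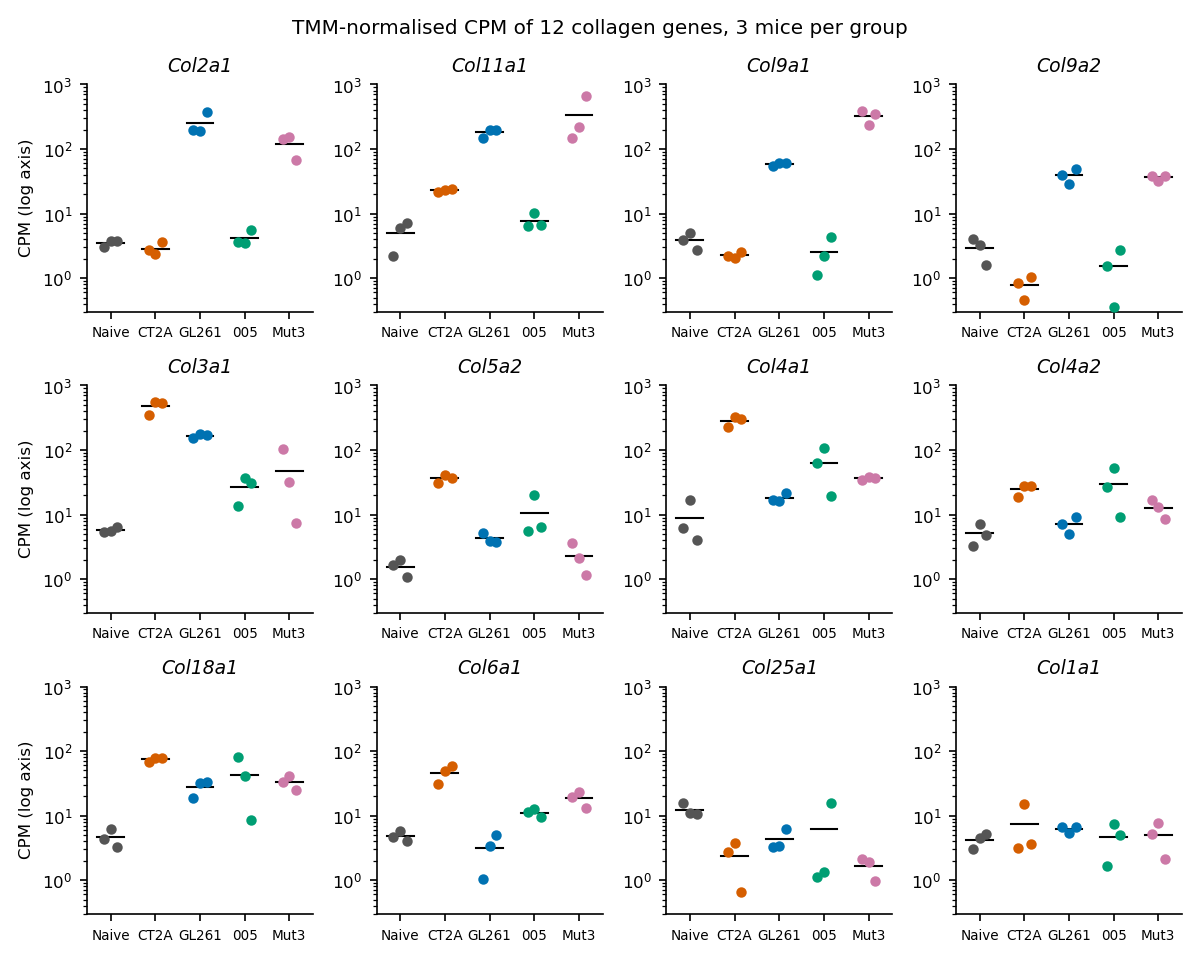
Points give the TMM-normalised CPM of 12 collagen genes in each mouse on a log axis, by group, and lines the group means. Col2a1, Col9a1 and Col9a2 are high in GL261 and Mut3 alone, Col3a1, Col5a2 and Col4a1 are highest in CT2A, Col25a1 is high in naïve brain and in 1 of the 005 tumors, and Col1a1 lies between 1.65 and 15.2 CPM in all groups.

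The fibrillar chains of types III and V were higher in CT2A than in naïve brain and Mut3. Col3a1 (ENSMUSG00000026043) forms the type III homotrimer of vessel walls and soft tissue. The naïve brains had 5.30, 5.48 and 6.49 CPM, the CT2A tumors 348, 551 and 533 CPM, those of GL261 152, 176 and 169 CPM, those of 005 13.7, 36.5 and 30.5 CPM and those of Mut3 103, 32.3 and 7.30 CPM. All 12 tumors exceeded all naïve brains, but Mut3 spread from close to naïve brain to near GL261. The log2 fold change was 6.37 ± 0.78 in CT2A (adjusted p = 0.000183), 4.85 ± 0.73 in GL261 (adjusted p = 0.00068), 2.22 ± 0.67 in 005 (adjusted p = 0.0423) and 3.04 ± 0.69 in Mut3 (adjusted p = 0.00345). CT2A was also above 005 by 4.15 ± 0.69 (adjusted p = 0.00525) and above Mut3 by 3.33 ± 0.67 (adjusted p = 0.00472), and its difference of 1.53 ± 0.62 from GL261 was not called (adjusted p = 0.15). The call in 005 was the weak one. It held in 6 of 15 fits and was lost without any naïve replicate, CT2A replicate 1 or 3, GL261 replicate 2 or 3, 005 replicate 2 or Mut3 replicate 2 (adjusted p up to 0.145), and without 005 replicate 3 it was 2.05 ± 0.72 (adjusted p = 0.0364).

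Type V chains join type I and III fibrils and set their width. Col5a1 had 1.22, 0.996 and 1.62 CPM in naïve brain, 14.4, 22.2 and 22.5 CPM in CT2A and 8.86, 21.5 and 3.63 CPM in 005. Col5a2 had 1.63, 1.99 and 1.08 CPM in naïve brain, 30.5, 41.3 and 37.1 CPM in CT2A and 5.56, 19.8 and 6.48 CPM in 005. Both stood above naïve brain without overlap in these tumors. For Col5a2 the log2 fold change was 4.51 ± 0.58 in CT2A (adjusted p = 0.000247) and 2.73 ± 0.56 in 005 (adjusted p = 0.00598). For Col5a1 it was 3.93 ± 0.76 (adjusted p = 0.00194) and 3.13 ± 0.74 (adjusted p = 0.0134), where the call in 005 was lost without naïve replicate 1 (adjusted p = 0.0604) or 005 replicate 2 (adjusted p = 0.0737). In GL261 and Mut3 neither passed the test. CT2A was not called against 005 for Col5a1, Col5a2 or Col5a3 (adjusted p = 0.432, 0.0562 and 0.381). Col5a1 and Col5a2 also differed between 005 and Mut3, by 2.25 ± 0.67 for Col5a1 (adjusted p = 0.0292) and by 2.19 ± 0.52 for Col5a2 (adjusted p = 0.0108), the former lost without 005 replicate 2 or Mut3 replicate 2 or 3 (adjusted p up to 0.146). Col5a3 rose in CT2A from at most 0.747 CPM to 3.66, 3.10 and 7.88 CPM (3.32 ± 0.83, adjusted p = 0.00693). It was also called higher in 005 without 005 replicate 3 (2.75 ± 0.74, adjusted p = 0.00951). The Mut3 tumors had 1.57, 0.755 and 0.44 CPM of Col5a3. Its call between CT2A and Mut3 held in only 5 of 15 fits (adjusted p up to 0.167). Col27a1, a fibrillar chain of cartilage and eye, was higher in CT2A (9.53, 12.7 and 8.14 CPM) and Mut3 (5.37, 25.3 and 26.8 CPM) than in naïve brain (0.408, 2.24 and 0.27 CPM), by 3.37 ± 0.93 and 4.29 ± 0.95 (adjusted p = 0.0114 and 0.00302). Without 005 replicate 3 it was also called higher in CT2A than in 005 (4.07 ± 0.98, adjusted p = 0.0315).

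Type I collagen, the main collagen of skin, bone and scar, was not called in any of the 10 comparisons. Col1a1 (ENSMUSG00000001506) had 3.06, 4.48 and 5.14 CPM in naïve brain, 5.26, 7.68 and 2.11 CPM in Mut3, 6.63, 5.33 and 6.55 CPM in GL261, 3.18, 15.2 and 3.62 CPM in CT2A and 1.65, 7.36 and 5.06 CPM in 005. Col1a2 had 9.996, 13.9 and 16.2 CPM in naïve brain, 43.4, 21.9 and 3.17 CPM in Mut3, 8.29, 3.56 and 10.2 CPM in GL261, 5.50, 5.74 and 5.81 CPM in CT2A and 6.08, 27.6 and 18.4 CPM in 005. The CT2A values of Col1a2 lay below all naïve brains, and the difference of -1.23 ± 0.72 did not pass the test (adjusted p = 0.178). The standard errors of the type I chains in the 10 comparisons ran from 0.65 to 0.72, and the largest difference that was not called was that of Col1a2, 4.0-fold lower in CT2A than in Mut3 (log2 difference -2.0, adjusted p = 0.081). A difference of this size in these chains can thus go uncalled at this depth and spread, and the power of the test was not computed. In TPM, which allows genes to be compared, the ratio of Col3a1 to Col1a1 was 65.2 ± 37.9 in CT2A, 17.9 ± 3.56 in GL261, 6.01 ± 6.07 in Mut3, 4.22 ± 1.07 in 005 and 0.94 ± 0.18 in naïve brain (SD, n = 3).

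Of the 7 basement membrane chains that were tested, those higher than naïve brain numbered 4 each for CT2A, 005 and Mut3 and 2 for GL261. In Mut3, 1 was lower. As shares of the 7 these were 57.1%, 28.6% and 14.3%. Of all tested genes, 19.0%, 11.6%, 17.9% and 14.6% were called higher in CT2A, 005, Mut3 and GL261, and 19.8% lower in Mut3. Col4a1 (ENSMUSG00000031502), a chain of the type IV network found in most basement membranes, had 226, 324 and 306 CPM in CT2A, 62.5, 109 and 19.6 CPM in 005, 33.8, 37.6 and 37.5 CPM in Mut3, 16.8, 16.2 and 21.7 CPM in GL261 and 6.12, 16.7 and 4.06 CPM in naïve brain. CT2A lay above every other sample. Col4a1 was the only tested collagen gene called higher in CT2A than in naïve brain (4.99 ± 0.61, adjusted p = 0.000183) and in all 3 other tumors (by 3.97 ± 0.58 from GL261, 2.98 ± 0.55 from Mut3 and 2.16 ± 0.53 from 005, adjusted p = 0.00108, 0.003 and 0.0373). The call against 005 was lost in 9 of 15 fits, namely without CT2A replicate 2 or 3, any GL261 or Mut3 replicate or 005 replicate 1, with an adjusted p of up to 0.128, and without 005 replicate 3 it was 1.76 ± 0.46 (adjusted p = 0.0421). Without 005 replicate 3, Col4a1 was also called lower in GL261 than in 005 (-2.24 ± 0.43, adjusted p = 0.0076).

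Col4a2, whose product joins with that of Col4a1 in a trimer of 2 α1 chains and 1 α2 chain, rose in CT2A by less than Col4a1. Col4a2 had 3.26, 7.22 and 4.87 CPM in naïve brain, 19.1, 27.8 and 27.3 CPM in CT2A, 27.1, 52.9 and 9.19 CPM in 005 and between 5.01 and 16.6 CPM in GL261 and Mut3. Its log2 fold change was 2.27 ± 0.54 in CT2A (adjusted p = 0.00572) and 2.54 ± 0.55 in 005 (adjusted p = 0.00792). Without 005 replicate 3, Col4a2 was also called lower in GL261 than in 005 (-2.50 ± 0.42, adjusted p = 0.00291). In that fit it was called higher in 005 than in Mut3 (1.585 ± 0.41, adjusted p = 0.0171). The TPM ratio of Col4a1 to Col4a2 was 10.7 ± 0.32 in CT2A, with a range of 10.4 to 11, against 2.83 ± 1.08 in Mut3, 2.47 ± 0.44 in GL261, 2.01 ± 0.12 in 005 and 1.56 ± 0.71 in naïve brain (SD, n = 3). The highest ratio outside CT2A was 4.01, in a Mut3 tumor. The genes lie head to head on chromosome 8 (Col4a1 at 11198423 to 11312826 on the minus strand and Col4a2 at 11312805 to 11449287 on the plus strand, GRCm38), with start sites 21 bases apart in RefSeq, and their first exons overlap. Reads from that overlap cannot be assigned without strand.

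**Figure D4:**
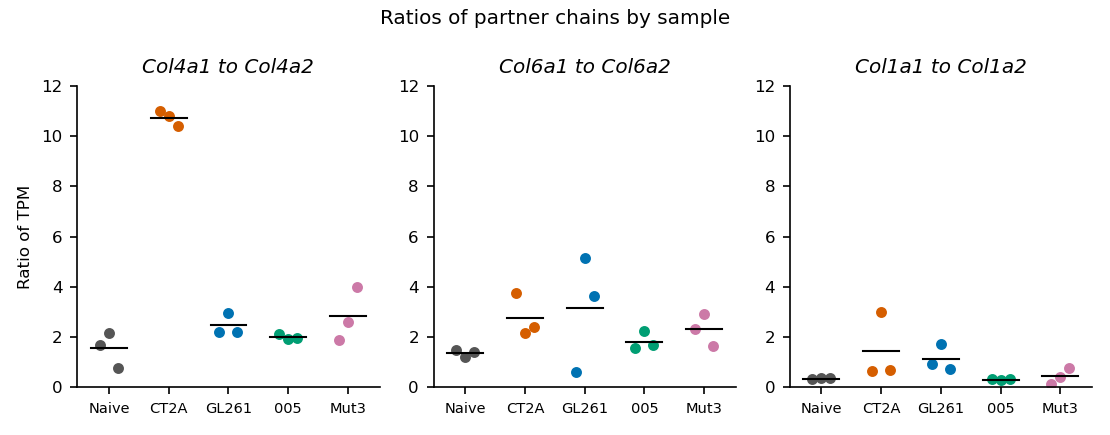
Points give, for each mouse, the ratio of TPM between partner chains of types IV, VI and I, and lines the group means. The Col4a1 to Col4a2 ratio lies between 10.4 and 11 in CT2A and at 4.01 or less elsewhere, and the Col6a1 to Col6a2 and Col1a1 to Col1a2 ratios reach at most 5.15 and 3.0.

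Col18a1 and Col4a5 were called higher than naïve brain in all 4 tumors, as was Col3a1, and these 3 were the only tested collagen genes for which this held. How large a share of all tested genes was called higher in all 4 tumors was not computed. Col18a1, whose C-terminal fragment is endostatin, had 4.28, 6.23 and 3.24 CPM in naïve brain, 33.1, 41.3 and 25.2 CPM in Mut3, 18.4, 31.7 and 32.8 CPM in GL261, 68.3, 78.7 and 79.3 CPM in CT2A and 80.1, 41.0 and 8.62 CPM in 005. No tumor overlapped naïve brain, and 005 replicate 3 came closest. The log2 fold changes of CT2A, GL261, 005 and Mut3 were 4.03 ± 0.62, 2.59 ± 0.60, 3.23 ± 0.61 and 2.85 ± 0.60 (adjusted p = 0.000578, 0.00814, 0.00375 and 0.00227). All 4 calls held with any replicate left out, and Col18a1 was called between no pair of tumors. Col4a5, a chain of the type IV network of kidney and smooth muscle, had 1.22, 3.74 and 0.541 CPM in naïve brain and, with the exception of 3.49 CPM in 005 replicate 3, between 6.59 and 34 CPM in the tumors. Its log2 fold change was 3.85 ± 0.79 in GL261, 3.33 ± 0.78 in Mut3, 3.27 ± 0.78 in 005 and 2.48 ± 0.77 in CT2A (adjusted p = 0.00421, 0.00418, 0.0134 and 0.0191). The call in CT2A was lost without naïve replicate 1 or 3 or CT2A replicate 3 (adjusted p up to 0.0718) and that in 005 without naïve replicate 1 or 3 or 005 replicate 2 (adjusted p up to 0.0674).

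Col4a6, the chain that pairs with Col4a5 and lies head to head with it on the X chromosome, was called higher than naïve brain only in Mut3, with 3.80, 11.7 and 5.72 CPM against 0.204, 0.249 and 0.541 CPM in naïve brain (4.39 ± 1.13, adjusted p = 0.00741). The GL261 tumors had 0, 2.59 and 0.243 CPM, and those of CT2A and 005 at most 0.776 and 1.42 CPM. Mut3 was called above CT2A and 005, in 11 and 4 of 15 fits that left out 1 sample, and was not called against GL261. The naïve value rests on 4 counts in all, and the ratio of counts per library size was 21.4, with a counting interval from 8.23 to 79.4. Col4a3, which in kidney joins with Col4a4 and Col4a5, went the other way in Mut3, from 3.06, 2.24 and 4.06 CPM to 1.45, 1.26 and 0.704 CPM (-1.45 ± 0.52, adjusted p = 0.0381), and this call held in only 6 of 15 fits. It was lost without any naïve or Mut3 replicate, CT2A replicate 2 or 3 or GL261 replicate 2 (adjusted p up to 0.128). The level of Col15a1, the relative of Col18a1, was 2.88, 6.04 and 0.57 CPM in 005 against 0, 0.747 and 0 CPM in naïve brain. It was not called in the fit of all samples (adjusted p = 0.061) and was called without 005 replicate 3 (4.04 ± 1.13, adjusted p = 0.0122).

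Type VI collagen is a beaded filament made of an α1, an α2 and a longer chain. The mean levels of Col6a1, Col6a2 and Col6a3 were highest in CT2A and lowest in GL261 among the tumors. Col6a1 had 30.8, 49.2 and 58.1 CPM in CT2A, 19.5, 23.2 and 12.9 CPM in Mut3, 11.3, 12.7 and 9.47 CPM in 005, 1.04, 3.39 and 5.10 CPM in GL261 and 4.69, 5.73 and 4.06 CPM in naïve brain. CT2A, 005 and Mut3 lay above naïve brain, and GL261 overlapped it. The log2 fold change was 3.25 ± 0.47 in CT2A and 1.93 ± 0.45 in Mut3 (adjusted p = 0.000407 and 0.00414), and 1.2 ± 0.45 in 005 was not called (adjusted p = 0.0881). Col6a2 had 2.65, 3.99 and 2.43 CPM in naïve brain, 7.08, 19.4 and 20.9 CPM in CT2A and 1.45, 0.485 and 1.21 CPM in GL261. It was higher in CT2A (2.38 ± 0.47, adjusted p = 0.00225) and lower in GL261 (-1.52 ± 0.51, adjusted p = 0.0431), and the difference of CT2A from GL261 was 3.90 ± 0.51 (adjusted p = 0.000463). GL261 differed from Mut3 by -2.70 ± 0.50 (adjusted p = 0.00305) and from 005 by -2.34 ± 0.49 (adjusted p = 0.0198). The calls against CT2A and Mut3 held in all 15 fits. The call against naïve brain held in 3 fits, those without CT2A replicate 1 and without 005 replicate 2 or 3, and its adjusted p reached 0.173 (without naïve replicate 2). The call against 005 was lost without any GL261 replicate or 005 replicate 1 (adjusted p up to 0.0883).

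Col6a3, the usual longer chain, had 0.408, 1.49 and 0 CPM in naïve brain, 23.0, 14.7 and 68.7 CPM in CT2A, 8.45, 29.2 and 1.28 CPM in 005 and 2.01, 12.1 and 15.6 CPM in Mut3. It was called higher in these 3 tumors (5.77 ± 1.27, 4.31 ± 1.24 and 3.93 ± 1.23, adjusted p = 0.00386, 0.0344 and 0.0207). The spread within the tumor groups was wide. The call in CT2A held in all 15 fits, that in 005 was lost without naïve replicate 1 or 3 or 005 replicate 1 or 2 (adjusted p up to 0.188), and that in Mut3 without naïve replicate 1 or 3 or Mut3 replicate 3 (adjusted p up to 0.0727). In GL261, with 1.24, 0.485 and 2.06 CPM, the difference was 1.00 ± 1.32 (adjusted p = 0.592). Col6a4, an alternative to that chain, had 2.04, 2.74 and 7.30 CPM in naïve brain and no count in any Mut3 tumor, so that Mut3 was at least 12.4-fold lower at a floor of 3 counts per library (adjusted p = 0.00415). In CT2A it had 2 counts in all, and the ratio of naïve brain to CT2A was 42.5, with a counting interval from 11.2 to 361 (adjusted p = 0.0132). That call was lost without CT2A replicate 2 or 3 (adjusted p up to 0.0596).

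Among the remaining chains, Col8a1, a short chain of endothelial and vascular matrix, was higher in CT2A, with 18.8, 28.1 and 19.1 CPM against 5.30, 3.49 and 2.97 CPM in naïve brain (2.47 ± 0.51, adjusted p = 0.00273), and was called in no other tumor. Col12a1, a fibril-associated chain of dense connective tissue, had 15.8, 14.1 and 19.5 CPM in GL261 against 5.10, 1.99 and 1.35 CPM in naïve brain (2.52 ± 0.73, adjusted p = 0.0254). The GL261 call of Col12a1 was lost without naïve replicate 2 or 3 or GL261 replicate 1 or 3 (adjusted p up to 0.0809). Col12a1 was also higher in GL261 than in Mut3, where the tumors had 0.448, 0.503 and 4.22 CPM (3.21 ± 0.74, adjusted p = 0.0106). That difference ran from 2.78 to 5.20 (without Mut3 replicate 3) as single samples were left out, and the call held in all 15 fits. Col16a1, another fibril-associated chain, rose in GL261 to 9.33, 6.30 and 11.3 CPM and in Mut3 to 8.17, 8.18 and 10.5 CPM, from 1.02, 1.49 and 1.89 CPM (2.61 ± 0.59 and 2.61 ± 0.58, adjusted p = 0.00723 and 0.00331).

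Col7a1, the chain of the anchoring fibrils under epithelia, had the highest log2 fold change of the tested collagen genes in CT2A and varied widely within groups. It had 12.8, 60.2 and 2.45 CPM in CT2A, 0, 24.7 and 18.9 CPM in GL261, 26.7, 1.93 and 0.0712 CPM in 005, 1.12, 1.26 and 0.44 CPM in Mut3 and 0, 0 and 0.811 CPM in naïve brain. The CT2A difference was called (6.59 ± 2.15, adjusted p = 0.0248), and it was lost without naïve replicate 1 or 2 or CT2A replicate 2 (adjusted p up to 0.095). Without 005 replicate 3, Col7a1 was also called higher in 005 than in naïve brain (5.72 ± 1.90, adjusted p = 0.0281). The naïve value rests on 3 counts in all, and the ratio of CT2A to naïve brain was 96.3, with a counting interval from 32.8 to 468.

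Besides Col9a2, Col11a2, Col6a2, Col4a3 and Col6a4, 3 collagen genes were called lower than naïve brain in some tumor. Col25a1, a transmembrane collagen of neurons, had 15.7, 11 and 10.5 CPM in naïve brain, 2.69, 3.73 and 0.646 CPM in CT2A, 3.32, 3.39 and 6.19 CPM in GL261, 2.13, 1.89 and 0.967 CPM in Mut3 and 1.13, 1.33 and 15.9 CPM in 005. The value of 005 replicate 3 lay with naïve brain and apart from the other tumors. The log2 fold change was -2.90 ± 0.90 for Mut3 (adjusted p = 0.019) and -2.40 ± 0.88 for CT2A (adjusted p = 0.0401). Without 005 replicate 3 it was -3.39 ± 0.68 in 005 (adjusted p = 0.0018), against -1.0 ± 0.82 with it. The call in CT2A held in 4 of 15 fits, those without GL261 replicate 3 or any 005 replicate, and was lost without any naïve, CT2A or Mut3 replicate or GL261 replicate 1 or 2 (adjusted p up to 0.135). The call in Mut3 was lost without naïve replicate 1 or Mut3 replicate 2 or 3 (adjusted p up to 0.0672). The neuron markers fell in the same tumors, with all 8 called lower in CT2A and in Mut3, against 20.2% and 19.8% of all tested genes. Their part in the level of Col25a1 was not tested.

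Col23a1, another transmembrane chain, had 8.57, 4.48 and 5.68 CPM in naïve brain and 1.24, 0.97 and 1.46 CPM in GL261 (-2.33 ± 0.73, adjusted p = 0.0347). Its call was lost without any naïve or GL261 replicate (adjusted p up to 0.114). Col19a1, a fibril-associated chain known from interneurons, had 1.02, 5.98 and 1.62 CPM in naïve brain and 2 counts in all in CT2A. The ratio of naïve brain to CT2A was 31.0, with a counting interval from 7.97 to 266 (adjusted p = 0.019), and the call was lost without naïve replicate 2 or CT2A replicate 2 or 3 (adjusted p up to 0.0999). Without 005 replicate 3, Col19a1 was also called lower in 005 than in naïve brain (-3.39 ± 1.28, adjusted p = 0.0489).

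**Figure D5:**
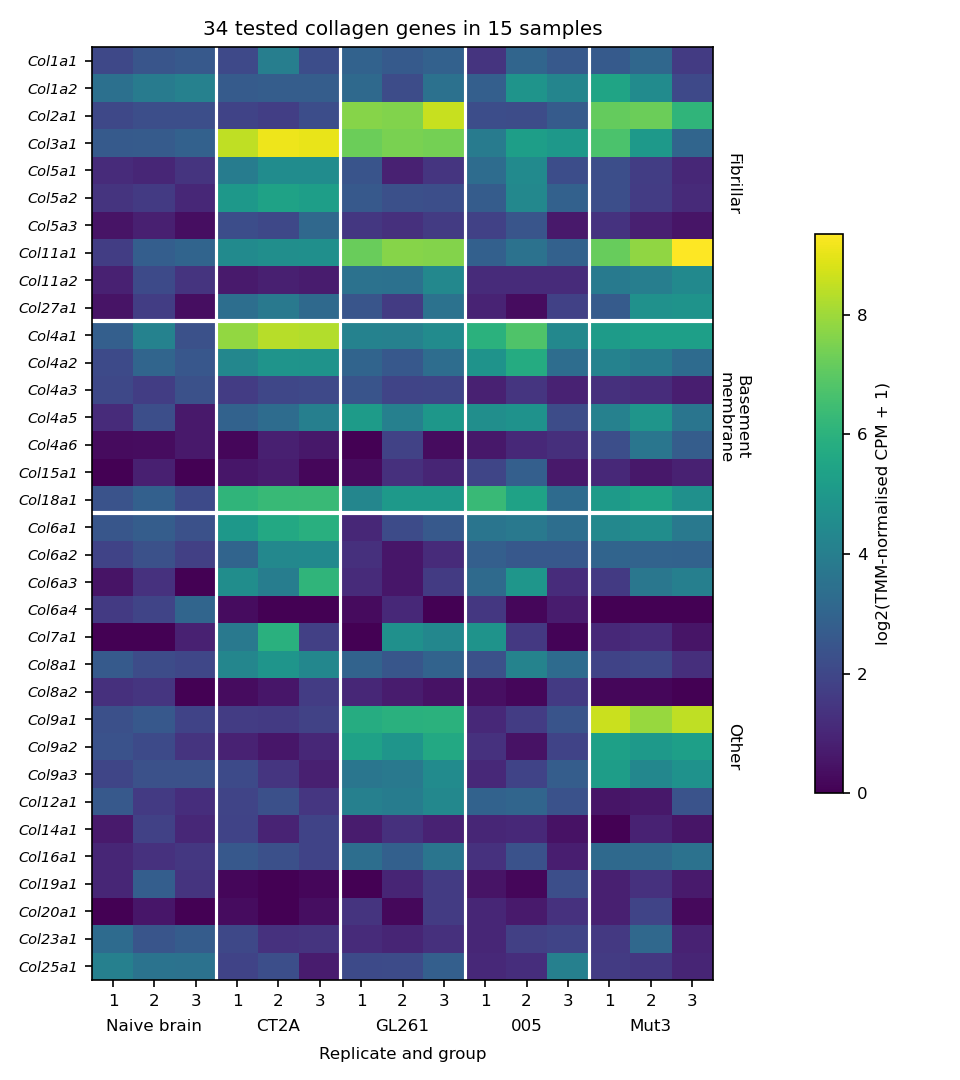
Colors give log2(CPM + 1) of the 34 tested collagen genes (rows, by class) in the 15 samples (columns, by group and replicate). Col3a1 and Col4a1 are bright in CT2A, Col2a1, Col11a1 and Col9a1 in GL261 or Mut3, and Col1a1 and Col14a1 show no block of any group.

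The 10 collagen genes too low to be tested were Col4a4, Col6a5, Col6a6, Col10a1, Col13a1, Col17a1, Col22a1, Col24a1, Col26a1 and Col28a1. All but 2 stayed under 3 CPM in every sample. The exceptions were Col22a1, with 56.4 CPM in GL261 replicate 1 and 0.647 and 0.97 CPM in the other GL261 tumors, and Col4a4, with 9.31 CPM in CT2A replicate 2 and at most 0.977 CPM in the other CT2A tumors. Col8a2, Col14a1, Col15a1 and Col20a1 were tested and were called in none of the 10 comparisons, as were Col1a1 and Col1a2. In all, 28 collagen genes were called in at least 1 tumor against naïve brain and 6 in none. The share of all tested genes called in at least 1 tumor was not computed, so these counts are a description only.

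In the 6 comparisons between tumors, 15 collagen genes were called between CT2A and GL261, 8 higher in CT2A and 7 lower (23.5% and 20.6% of the 34), where 4.15% and 3.62% of all tested genes were. Between CT2A and Mut3, 6 were higher and 7 lower in CT2A (17.6% and 20.6%), against 6.61% and 6.15% of all genes. Between 005 and Mut3, 4 were higher and 9 lower in 005 (11.8% and 26.5%), against 14.0% and 5.76%. Between GL261 and 005, 6 were higher and 1 lower in GL261 (17.6% and 2.94%), against 1.73% and 0.887%. Between GL261 and Mut3, 2 were higher and 3 lower in GL261 (5.88% and 8.82%), against 11.1% and 6.10%. Between CT2A and 005, 3 were higher in CT2A and 0 lower (8.82% and 0%), against 2.12% and 1.99%. The count between CT2A and 005 was 5 without naïve replicate 2 and 1 without CT2A replicate 2 or 3, that between GL261 and 005 was 13 without 005 replicate 3 (7 higher and 6 lower in GL261, against 2.83% and 3.04% of all genes), and that between GL261 and Mut3 was 9 without 005 replicate 2 and 8 without 005 replicate 3. DESeq2 also gave 8 higher and 6 lower for GL261 against 005, and the fit without a filter 7 and 6. The 7 that were lower in CT2A than in GL261 were the 6 chains of types II, IX and XI and Col12a1, and the 9 that were lower in 005 than in Mut3 included the same 6. All 6 were also lower in CT2A than in Mut3, by between 3.79 for Col9a3 and 7.14 for Col9a1 on the log2 scale, and these 6 calls held in all 15 fits. GL261 and 005 differed in 5 of the 6, with Col9a3 not called (adjusted p = 0.0514). Without 005 replicate 3, Col9a3 was called as well (3.01 ± 0.59, adjusted p = 0.00803).

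The genes that modify, fold, cut and bind collagen were examined from lists written for collagen synthesis. Of all tested genes, 19.0%, 14.6%, 11.6% and 17.9% were called higher than naïve brain in CT2A, GL261, 005 and Mut3. The shares called lower were 20.2%, 7.77%, 1.05% and 19.8%. List results for 005 include replicate 3, and without it 17.6% and 18.1% of all genes were called higher and lower in 005. Of 15 genes for prolyl and lysyl hydroxylation and chain glycosylation, 10 were higher than naïve brain in CT2A and in Mut3, 8 in GL261 and 6 in 005, and 1 was lower in CT2A. Plod2, the lysyl hydroxylase of the telopeptides, was among those called in all 4 tumors, with 3.63 ± 1.0 CPM in naïve brain and between 59.7 ± 42.4 in 005 and 112 ± 8.73 in CT2A (SD, n = 3). Its log2 fold change in CT2A was 4.92 ± 0.60 (adjusted p = 0.000183). P3h1, a prolyl 3-hydroxylase, had 33.2 ± 7.89 CPM in GL261 against 2.26 ± 1.57 in naïve brain (3.89 ± 0.71, adjusted p = 0.002). Of 10 genes for folding and export of procollagen, 4 were higher and 1 lower in CT2A, 4 and 0 in GL261, 0 and 0 in 005 and 4 and 1 in Mut3. Serpinh1, the collagen chaperone HSP47, had 169 ± 7.63 CPM in CT2A, 153 ± 33.3 in Mut3, 49.6 ± 10.8 in GL261, 27.1 ± 13.1 in 005 and 12.4 ± 10.2 in naïve brain. It was called in CT2A (3.77 ± 0.51, adjusted p = 0.000292), Mut3 and GL261 but not in 005 (1.13 ± 0.47, adjusted p = 0.119). Fkbp10, which acts with it on procollagen, had 33.2 ± 6.23 CPM in Mut3 against 2.02 ± 1.54 in naïve brain (4.05 ± 0.52, adjusted p = 0.00019).

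Of 13 genes for procollagen cleavage and cross-linking, 9 were tested, and 5 were higher and 1 lower in CT2A, 4 and 0 in GL261, 3 and 0 in 005 and 4 and 1 in Mut3. Pcolce2, an enhancer of C-propeptide removal, was called in all 4 tumors, with 3.28 ± 2.18 CPM in naïve brain and from 14.8 ± 5.76 CPM in GL261 to 56.8 ± 54.2 CPM in Mut3. Adamts14, an N-propeptide protease, had 7.79 ± 5.34 CPM in 005 and 3 counts in all in naïve brain, a ratio of 28.6 with a counting interval from 9.66 to 140 (adjusted p = 0.0029). Of 10 collagen receptors and uptake genes, 7 were tested, and 4 were higher and 1 lower in CT2A, 3 and 1 in GL261, 4 and 0 in 005 and 2 and 0 in Mut3. Ddr2, a receptor tyrosine kinase for fibrillar collagen, rose from 3.45 ± 2.21 CPM to between 33.8 ± 18.6 CPM in 005 and 47.7 ± 22.3 CPM in GL261. Itga10, the α subunit of an integrin that binds type II collagen, had 10.7 ± 6.08 CPM in CT2A, where it was called (adjusted p = 0.00381), against 0.285 ± 0.175 CPM in GL261 and 0.52 ± 0.528 CPM in Mut3. Of 15 partners in basement membranes, 11 were tested, and 4 were higher in CT2A, in 005 and in Mut3 and 3 in GL261, with 1 lower in Mut3. Lamb1, a laminin chain, had 131 ± 25.0 CPM in CT2A against 13.8 ± 2.86 in naïve brain (3.23 ± 0.51, adjusted p = 0.000676), and Lamb3 had 0.655 ± 0.987 CPM in Mut3 against 8.46 ± 3.01 (-3.67 ± 1.12, adjusted p = 0.0183). Of 11 fibril-binding proteins, 9 were tested, and 5 were higher in CT2A, 4 in Mut3, 3 in 005 and 2 in GL261, with 1 lower in Mut3. Postn and Thbs2, matrix proteins of wounds and tumors, had 74.7 ± 53.7 and 206 ± 38.4 CPM in CT2A against 2.0 ± 1.99 and 8.18 ± 1.44 CPM in naïve brain (5.24 ± 0.71 and 4.65 ± 0.63, adjusted p = 0.000303 and 0.000292).

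Markers of the cell types that usually make collagen in brain were measured in the same samples. For comparison, 19.0%, 14.6%, 11.6% and 17.9% of all tested genes were called higher than naïve brain in CT2A, GL261, 005 and Mut3. The shares called lower were 20.2%, 7.77%, 1.05% and 19.8%. Marker counts for 005 include replicate 3. The 8 fibroblast markers summed to between 7.64 and 18.8 TPM in naïve brain, 4.08 and 5.69 TPM in Mut3, 6.55 and 6.82 TPM in GL261, 8.65 and 9.87 TPM in CT2A and 6.18 and 13.2 TPM in 005. Dpt was listed at 0 in all Mut3 tumors. Of the 6 tested, 2 were called higher in CT2A, 1 in GL261 and 1 in 005, and 1 was lower in GL261 and 2 in Mut3. The 6 meningeal markers summed to between 15.7 and 48.1 TPM in naïve brain and at most 20.5 TPM in any tumor, and 0 were called higher in any tumor, while 2 were lower in CT2A and 2 in Mut3. The 8 endothelial markers summed to between 26.2 and 55.8 TPM in naïve brain and 10.9 and 13.7 TPM in CT2A and to between 12.4 and 33.6 TPM in the others, while 0 were called lower in any tumor, 1 was called higher in CT2A, in GL261 and in 005 and 2 in Mut3. The 8 mural cell markers summed to between 20.7 and 27.3 TPM in naïve brain, 8.91 and 11.8 TPM in CT2A and 12.7 and 24.6 TPM in the others. Of these, 0 were called lower in any tumor, 2 were called higher in CT2A, in 005 and in Mut3 and 0 in GL261, and their median log2 fold change in CT2A was 0.33, so that the sums and the tests of single markers did not move alike. The 7 choroid plexus markers ranged from 244 to 1187 TPM in naïve brain, and 005 replicate 3 had the highest sum of all samples, 4265 TPM. The 7 oligodendrocyte and 7 astrocyte markers summed to at least 196 and 63.0 TPM in naïve brain and to at most 161 and 90.7 TPM in the tumors other than 005 replicate 3. The 7 macrophage and microglia markers summed to between 168 and 177 TPM in naïve brain, 47.7 and 154 TPM in Mut3, 510 and 662 TPM in GL261, 246 and 254 TPM in CT2A and 370 and 1037 TPM in 005. The part of these cell types in the collagen levels, and the share of each collagen that came from grafted or host cells, was not tested.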

How the data were processed

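Bulk RNA was sequenced from 15 mice in 5 groups, 3 per group. Per the labels, the authors aligned reads with STAR 2.4.2a to the GENCODE mouse genome, and the submitters' processing notes name Salmon, DESeq2 1.18.1 and the build mm10. The annotation release and the strand setting are not given in the sources used here. The authors deposited estimated counts per gene, not normalised between samples, and transcripts per kilobase scaled to a fixed sum (TPM). Total counts ranged from 3105119 to 13130158 per sample, and the 3-count floor from 0.228 to 0.966 CPM. Of 46679 gene IDs, 46201 matched GENCODE M21, from which symbols, gene types and coordinates (GRCm38) were taken. Nothing in the labels beyond separate mice tells replicates apart, so p-values measure the spread between these samples.

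Counts were rounded and fitted with edgeR 4.0.16 in R 4.3.3 (filterByExpr, TMM, quasi-likelihood, all samples, no covariate). The standard error is the absolute log2 fold change divided by the square root of F. The test was checked on simulated data. CPM values are TMM-normalised. TPM was used for sums, shares and ratios, which carry no test. Counting intervals are exact and cover counting error only. Named were the 4 highest collagen genes of each class by TPM, the 3 called with the largest changes in each direction against naïve brain where the higher group averaged 1 or more log2 CPM, the 2 largest in each direction per tumor pair, those called in all tumors or in 1 tumor against all other groups, the chains of types I, III, IV and VI, and the 2 largest changes of each pathway list. Col5a3, Col8a1, Col8a2, Col9a3, Col11a2, Col14a1, Col15a1, Col20a1, Col27a1 and the untested genes outside these rules were named after their values were seen.

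The collagen genes, classes, 6 pathway lists and 9 marker lists were chosen with earlier results of these data known. The grouping of types II, IX and XI, and the cartilage genes in the closing section, were made after the values were seen. Alternatives were library size scaling, DESeq2 1.42.0, no filter or at least 10 counts in every sample, fits of the 2 groups alone, limma 3.58.1 on log2(TPM + 1) and log2(TPM + 0.1), other fold limits, a replicate block and leaving out each sample. Replicate numbers stand for different mice. A description of the triple helix from protein sequences was planned and not run, since proteins were not used here. Part of the genotype of the lines is not reported here.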

Additional observations from a re-analysis of the deposited data

Results flagged for a closer look

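In 5 results a collagen gene was called in opposite directions against naïve brain in a pair of tumors, and the pair itself was called by edgeR with all samples in the fit. Col9a2 was lower than naïve brain in CT2A and higher in GL261 and Mut3, and CT2A differed by -5.60 from GL261 and by -5.48 from Mut3 on the log2 scale. Col11a2 showed the same pattern, with CT2A at -4.31 from GL261 and at -4.55 from Mut3. Col6a2 was higher than naïve brain in CT2A and lower in GL261, with a difference of 3.90. The call between the tumors held in all 15 fits that left out 1 sample for each of these, while the calls below naïve brain held in 12 of 15 for Col9a2, 7 for Col11a2 and 3 for Col6a2.

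Among collagen genes that were too low to be tested, 2 had a high value in a single tumor. Col22a1, a fibril-associated chain of tissue junctions, had 56.4 CPM in GL261 replicate 1 and at most 3.28 CPM in every other sample. Col4a4 had 9.31 CPM in CT2A replicate 2 and at most 2.01 CPM elsewhere. With 3 samples per group no test for outlying samples was made.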

How the results depend on the processing

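No fold change of a called collagen gene reversed under any alternative. Such values stayed called in 2479 instances and did not pass in 322, and 81 of 115 calls held in all 15 fits that left out 1 sample. The summed TPM of each group moved by less than the spread between its replicates, while 5 of the chain ratios moved by more. A count of called collagen genes moved by over 1.5 times in the cases that follow, and causes were not tested. With at least 10 counts in every sample only 10 collagen genes were tested, and the counts were 6, 5, 4 and 6 for CT2A, GL261, 005 and Mut3 against naïve brain, 6 for CT2A against GL261, 6 for CT2A against Mut3, 4 for GL261 against 005, 3 for GL261 against Mut3, 4 for 005 against Mut3 and 8 across the groups, as follows from the fewer genes. With log2(TPM + 1) in limma they were 5, 7, 2 and 9 against naïve brain, 8 for CT2A and 3 for GL261 against Mut3 and 8 for 005 against Mut3. With the 2 groups alone they were 0 for 005 against naïve brain, 1 for CT2A against 005 and 6 for 005 against Mut3. In the edgeR fit that gave 0, 9 collagen genes were higher and 1 lower at an unadjusted p under 0.05, and DESeq2 called 10 higher and 1 lower. CT2A against 005 gave 7 with DESeq2, 5 without a filter and 1 with log2(TPM + 0.1), GL261 against 005 gave 14 with DESeq2 and 13 without a filter, and GL261 against Mut3 gave 9 with both.

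Leaving out 1 sample gave 14 to 21, 10 to 16, 4 to 15 and 15 to 20 calls for CT2A, GL261, 005 and Mut3 against naïve brain. Between tumors it gave 11 to 16 for CT2A against GL261, 1 to 5 for CT2A against 005, 11 to 16 for CT2A against Mut3, 5 to 13 for GL261 against 005, 4 to 9 for GL261 against Mut3 and 10 to 13 for 005 against Mut3, and 24 to 28 across the groups. The lowest and highest for 005 against naïve brain came without naïve replicate 1 or 005 replicate 2 and without 005 replicate 3, and without naïve replicate 3 there were 5. For CT2A against 005 they came without CT2A replicate 2 or 3 and without naïve replicate 2, and for GL261 against 005 and GL261 against Mut3 the highest came without 005 replicate 3 and without 005 replicate 2, respectively.

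The replicate numbers showed no sign of pairing the samples. Deviations of same-numbered samples correlated at -0.33 to 0.26 (median -0.02), and those of different-numbered samples at -0.42 to 0.475 (median 0.015). With a replicate block the counts against naïve brain were 18, 11, 7 and 17, those between tumors 12, 3, 12, 6, 5 and 12, and 23 differed across the groups. Scaling by library size moved the median of all genes in CT2A against naïve brain from -0.04 to -0.24 on the log2 scale and left 20 calls. Naïve brain had the fewest counts, which limits what can be said of chains near its floor, and 10 collagen genes could not be tested.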

Other observations

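Genes of cartilage matrix other than collagens were read in the same samples, chosen after the values of types II, IX and XI were seen, and are given as values. Cnmd, which encodes the cartilage glycoprotein chondromodulin, had 464, 431 and 420 CPM in GL261 and 252, 644 and 1242 CPM in Mut3. The other samples had 3.91 to 12.7 CPM, so that Cnmd was high in the lines with high Col2a1. Within Mut3 its highest value was in replicate 3, where Col2a1 was lowest. Hapln1, the link protein of aggrecan, was high in Mut3 alone, with 196, 172 and 226 CPM against 4.35, 6.47 and 3.88 CPM in GL261 and 20.2, 17.2 and 14.9 CPM in naïve brain. Acan, aggrecan itself, had 6.82, 12 and 9.67 CPM in Mut3 and at most 0.728 CPM elsewhere. Comp and Chad, of cartilage and tendon, stayed under 1 CPM in every sample. Matn1 had 2.24, 6.92 and 4.22 CPM in Mut3 and at most 1.82 CPM elsewhere. Snorc had 2.24, 6.79 and 65.3 CPM in Mut3 and at most 3.72 CPM elsewhere. Matn3 and Matn4 reached at most 2.52 and 1.45 CPM, both in Mut3.

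Among transcription factors that act on Col2a1 in cartilage, Sox6 had 188, 153 and 171 CPM in GL261 and 356, 179 and 383 CPM in Mut3, against 45.3, 13.9 and 39.7 CPM in naïve brain and 3.66, 0.31 and 7.88 CPM in CT2A. Sox9 did not follow that order, with 59.6, 85.7 and 82.2 CPM in CT2A and 18, 26.5 and 19.2 CPM in GL261. Sox5 overlapped between GL261 (0.829, 16.5 and 9.58 CPM) and CT2A (13.3, 12.3 and 4.65 CPM), and also between Mut3 (26.4, 21.8 and 33.9 CPM) and naïve brain (24.9, 11.5 and 23.3 CPM). The part of these factors in the level of Col2a1 was not tested.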
